A study of Mus musculus with 9 samples.

Results

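The genes described here are the collagen chains, taken one by one. They were picked by gene symbol alone, as every symbol made of Col, a number, the letter a and a second number. This gave 26 chains among the 587 genes of a table of secreted-protein genes that compared quadriceps muscle after transverse aortic constriction (TAC) with quadriceps after sham surgery. It gave 44 chains among the 24537 gene names of a transcriptome-wide table that compared quadriceps with heart after sham surgery, where the transcript with the highest summed count stood for each chain. All 26 chains of the first table were among the 44 of the second.

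The study used TAC, in which a suture around the aortic arch narrows the vessel and overloads the left ventricle, as a model of heart failure with muscle wasting. The mice were wild-type male C57Bl/6JCrl animals, aged 8 weeks when operated on, as the labels give it. They had either a constriction around a 27 gauge needle or a sham operation, and tissue was taken 12 weeks later. By the study's methods, mRNA purified from the total RNA of whole tissue was sequenced. There were 9 libraries, with 3 from heart after the sham operation, 3 from quadriceps after it and 3 from quadriceps after TAC. The TAC libraries carry the label of a cachectic group. No transgene or drug was used in these groups. The TAC libraries are called 1, 2 and 4 here, after their columns. The 3 sham quadriceps libraries served both comparisons. The whole libraries held 32651317, 32989108 and 23383452 counts for sham quadriceps, 48614494 and 48999600 for TAC libraries 1 and 2, and 37057358, 38382751 and 33102826 for heart, while the total of TAC library 4 was not analysed here. Within the table of secreted-protein genes, the TAC libraries held 1166978, 1297786 and 1326011 counts and the sham libraries 917422, 1006148 and 689630. Every TAC library was therefore deeper there than every sham library, and depth and surgery cannot be told apart. The p-values of the main test measure the spread among 3 libraries a group, and with 3 against 3 an exact permutation test of a single value could not go below p = 0.1. Fits that leave out libraries, among them those on library totals after TAC, rest on fewer.

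Collagens are trimers of chains wound into a triple helix, secreted as precursors and assembled outside the cell. Fibrillar collagens form the banded fibrils that carry tension in tendon and in the sheaths of muscle, while basement membrane collagen forms the sheet-like network around each muscle fibre and capillary. Beaded filament collagen links that network to the fibrils, and the fibril-associated collagens with interrupted triple helices (FACIT) sit on the fibril surface or at junctions such as that between muscle and tendon. Most of these chains are made by fibroblasts, and type IV chains also by endothelial cells, mural cells and muscle fibres. In whole tissue, fewer cells of a type and less RNA per cell cannot be told apart.

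Collagen mRNA was lower in the quadriceps after TAC, and the fall was largest for the main fibrillar chains. Of the 26 chains, 14 fell and 2 rose at an adjusted p under 0.05 (edgeR quasi-likelihood F-test, p adjusted by Benjamini-Hochberg over all genes tested), and 10 were not called. Among all 586 genes tested, 11.9% were called lower and 17.7% higher. The largest falls were those of Col3a1, Col1a1 and Col1a2, at -3.95, -3.31 and -2.51 on the log2 scale. The 2 chains that rose were Col7a1 and Col19a1. The normalised counts of the 2 groups did not overlap, with TAC lower, for 17 chains, against 21.2% of all genes, and with TAC higher for 2 chains, against 26.1%. By the study's own criterion, an unadjusted p under 0.05 with a change of at least 1 on the log2 scale, 14 chains were lower and 2 higher, against 12.6% and 11.4% of all genes. The median log2 fold change of the chains was -1.02, beside 0.03 for all genes tested.

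These values are scaled by TMM (trimmed mean of M-values) over the listed genes, so that the median gene stays near 0, and a normalised count is a count divided by the library's scaled size. When the counts were divided by library totals instead, in the 5 libraries whose totals were used, the median of all 586 genes moved to -0.63 and that of the chains to -1.82, while leaving out TAC library 4 with TMM kept the former at -0.08. With library totals 19 chains fell, against 30.7% of all genes, and none rose, against 3.41%. Col7a1 and Col19a1 were then not called (log2 fold changes 0.45 and 0.72, edgeR adjusted p = 0.229 and 0.132). With TMM, 9 chains were called lower when sham library 3 was left out, against 38 of all 586 genes.

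**Figure D1:**
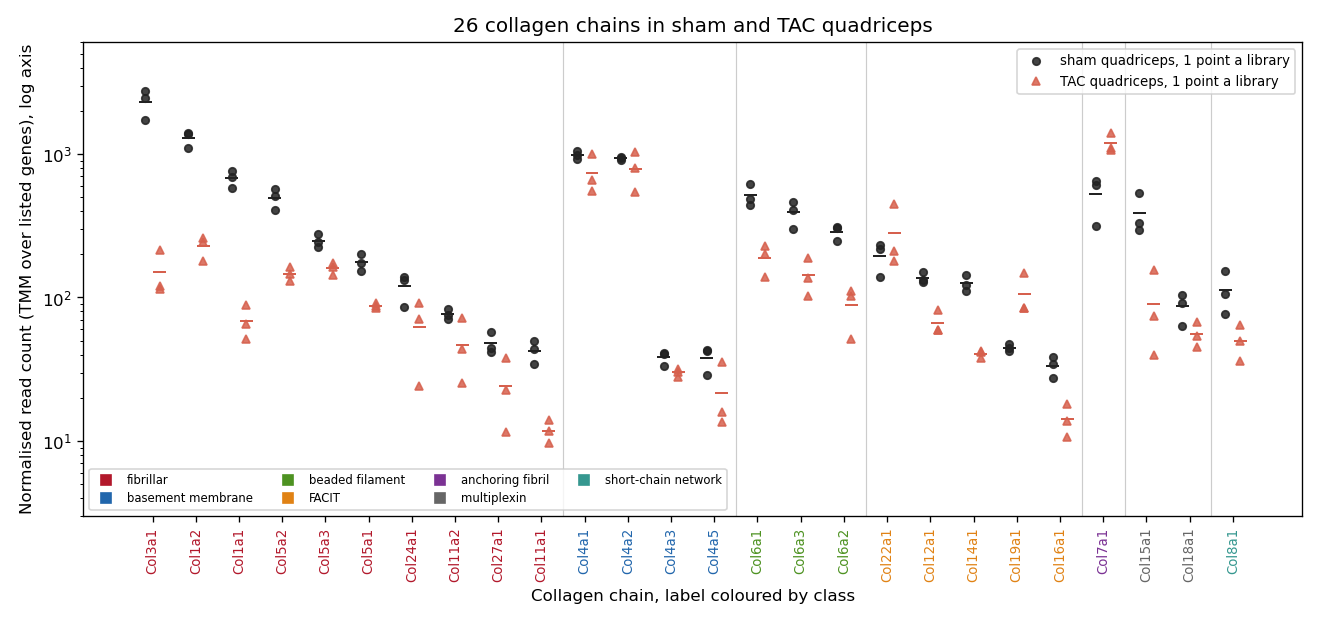
Normalised read counts (TMM over the listed genes, log axis) of the 26 collagen chains in the quadriceps, 1 point a library, with a line at each group mean and chains grouped by class. For Col3a1 the sham libraries lie between 1740.2 and 2732 and the TAC libraries between 114 and 213, while for Col7a1 the 3 TAC libraries lie above the sham libraries.

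**Figure D2:**
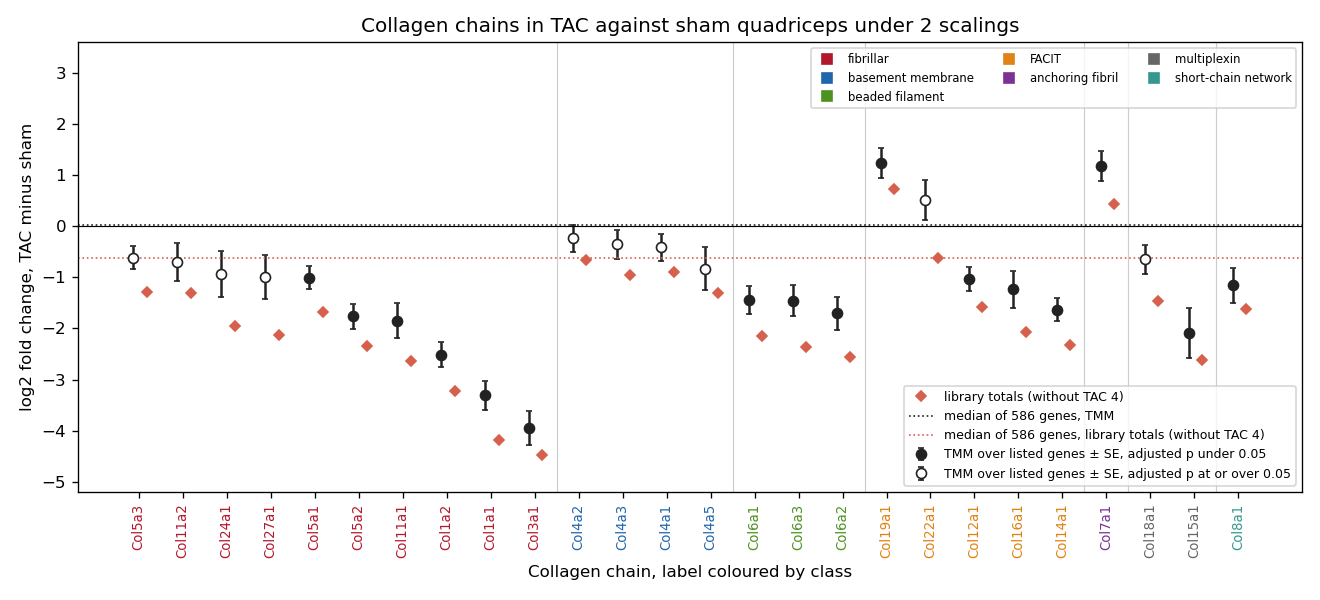
Log2 fold change of each collagen chain, TAC minus sham quadriceps, with TMM over the listed genes (circles, ± SE, filled where the adjusted p was under 0.05) and with library totals (diamonds, without TAC library 4). Dotted lines mark the medians of all 586 genes, 0.03 and -0.63. The fibrillar chains Col3a1, Col1a1 and Col1a2 lie lowest, the 4 type IV chains lie closer to the medians, and Col19a1 and Col7a1 lie above them.

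The region before the start of 4 chains with large changes is shown. Col3a1 fell most after TAC, Col15a1 fell most outside the fibrillar class, and Col7a1 rose, by 1.18 beside 1.23 for Col19a1. The windows of Col19a1 and of Col4a5, the chain furthest below heart in quadriceps (-3.78), are not shown. Col24a1 had the largest log2 fold change between quadriceps and heart with TMM, at 6.77 from 6 heart reads, just above 6.71 for Col7a1. Each region is the 250 bases upstream of the start that RefSeq annotates on GRCm38.p6, on the plus strand at chr1:45311288-45311537, chr4:47207762-47208011, chr9:108953336-108953585 and chr3:145292222-145292471. None of these windows touches an exon in the GENCODE annotation. Capitals mark matches, on either strand, to TATAAA, to CCAAT or to GGGCGG.
Col3a1: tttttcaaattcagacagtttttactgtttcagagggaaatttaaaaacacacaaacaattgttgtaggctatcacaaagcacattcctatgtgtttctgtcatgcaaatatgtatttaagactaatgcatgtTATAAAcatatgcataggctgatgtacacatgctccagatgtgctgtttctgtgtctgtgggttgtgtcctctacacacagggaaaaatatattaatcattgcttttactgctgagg
Col15a1: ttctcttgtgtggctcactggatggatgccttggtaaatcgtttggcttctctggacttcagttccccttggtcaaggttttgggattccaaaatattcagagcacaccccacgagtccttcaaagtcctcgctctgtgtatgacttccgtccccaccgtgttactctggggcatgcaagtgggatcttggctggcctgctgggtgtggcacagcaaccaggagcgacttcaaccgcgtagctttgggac
Col7a1: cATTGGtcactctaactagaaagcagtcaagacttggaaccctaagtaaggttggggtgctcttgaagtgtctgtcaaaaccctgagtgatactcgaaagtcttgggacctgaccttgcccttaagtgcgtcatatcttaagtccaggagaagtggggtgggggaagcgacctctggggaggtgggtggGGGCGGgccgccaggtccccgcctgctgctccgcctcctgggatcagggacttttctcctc
Col24a1: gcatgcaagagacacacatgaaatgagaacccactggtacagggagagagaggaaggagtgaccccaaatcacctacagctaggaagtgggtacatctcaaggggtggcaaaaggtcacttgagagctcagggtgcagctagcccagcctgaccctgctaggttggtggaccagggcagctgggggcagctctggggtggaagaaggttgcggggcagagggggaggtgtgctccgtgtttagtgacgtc
The Col3a1 window held TATAAA, 117 bases before the start. The Col7a1 window held the reverse complement of CCAAT 249 bases and GGGCGG 61 bases before the start. The windows of Col15a1 and Col24a1 held none of the 3 motifs. RefSeq windows were found for 35 of the 44 chains, of which 5 held TATAAA, 13 held CCAAT and 21 held GGGCGG. Of 32851 windows of all genes, 12.4% held the first, 33.8% the second and 32.7% the third. A match describes the letters only.

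Among the fibrillar chains, 6 of 10 fell and none rose. Col3a1 encodes the single chain of type III collagen, which makes thin fibrils in extensible tissue and was the most abundant chain per length in sham quadriceps, at 13.9 ± 3.90 RPKM (reads per kilobase of transcript, scaled to the library total, mean ± SD, n = 3). It had 2461, 1740.2 and 2732 normalised counts in the sham libraries and 114, 213 and 121 in the TAC libraries (log2 fold change -3.95 ± 0.33 SE, adjusted p = 0.000557). The groups lay far apart, at a 15.4-fold difference, and TAC library 2 was the highest of its group. Type I collagen, the main protein of tendon, combines 2 chains from Col1a1 with 1 from Col1a2. Col1a1 had 697, 577 and 762 normalised counts in the sham libraries and 51.3, 65.6 and 88.1 in the TAC libraries (log2 fold change -3.31 ± 0.29 SE, adjusted p = 0.000557). Col1a2 had 1403, 1099 and 1383 normalised counts in the sham libraries and 179, 259 and 243 in the TAC libraries (log2 fold change -2.51 ± 0.24 SE, adjusted p = 0.000812). No library of one group reached the other for either chain, and the fold differences were 9.91 and 5.70.

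Type V collagen is a minor partner that starts type I fibrils and limits their width. Col5a2 had 509.7, 405 and 575 normalised counts in the sham libraries and 145, 162 and 130.2 in the TAC libraries (log2 fold change -1.76 ± 0.24 SE, adjusted p = 0.00288). Col5a1 had 174, 154 and 201 normalised counts in the sham libraries and 84.3, 87.1 and 91.1 in the TAC libraries (log2 fold change -1.01 ± 0.23 SE, adjusted p = 0.0166). Both fell without overlap, Col5a2 more than Col5a1, and Col5a1 lost its call without sham library 1 or 3. Col5a3, the third type V gene, had a log2 fold change of -0.62 and was not called (edgeR adjusted p = 0.0699). With library totals Col5a3 was called lower, at -1.28 (edgeR adjusted p = 0.0153). Type XI collagen is the counterpart of type V in cartilage. Col11a1 had 49.6, 34.4 and 43.99 normalised counts in the sham libraries and 9.69, 11.7 and 14.02 in the TAC libraries (log2 fold change -1.84 ± 0.34 SE, adjusted p = 0.00845). It fell, but from few reads, with 10, 12 and 14 counts in the TAC libraries. The other 3 fibrillar chains, Col11a2, Col24a1 and Col27a1, had log2 fold changes of -0.70, -0.93 and -0.99 and were not called. With library totals Col24a1 and Col27a1 were called lower, at -1.95 and -2.12 (edgeR adjusted p = 0.0176 and 0.0127). Col11a2 was at -1.31 on that scale without a call. The following values are with TMM. Without TAC library 2 Col11a2 was called lower (-1.14, edgeR adjusted p = 0.032), and without TAC library 4 Col27a1 was (-1.57, edgeR adjusted p = 0.0281).

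None of the 4 basement membrane chains passed the test. Col4a1 and Col4a2 encode the type IV chains found in nearly all basement membranes and were the next most abundant class in sham quadriceps, at 4.95 ± 0.927 and 4.80 ± 0.507 RPKM. Col4a1 had 1048, 929.7 and 978 normalised counts in the sham libraries and 657, 1006 and 555 in the TAC libraries (log2 fold change -0.41 ± 0.26 SE, adjusted p = 0.257). The groups overlapped, since TAC library 2 lay within the sham range and TAC library 4 lay lowest. Col4a2 showed the same order of TAC libraries and a log2 fold change of -0.24. Col4a3 and Col4a5, chains of the networks known from the kidney glomerulus, were at -0.35 and -0.83. Without TAC library 2, Col4a1 and Col4a5 were called lower, at -0.70 and -1.37 (edgeR adjusted p = 0.0369 and 0.0265). With library totals and without TAC library 4, Col4a1 fell by 0.90 on the log2 scale (edgeR adjusted p = 0.0405), and Col4a2, Col4a3 and Col4a5 were at -0.67, -0.95 and -1.31 without a call.

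All 3 beaded filament chains fell. Type VI collagen surrounds muscle fibres, and its mutations cause muscular dystrophy and contracture. Col6a1, the most abundant of them per length, had 486, 445 and 620.1 normalised counts in the sham libraries and 139, 227 and 202 in the TAC libraries (log2 fold change -1.45 ± 0.27 SE, adjusted p = 0.00845). Col6a2 had 306, 249.6 and 308 normalised counts in the sham libraries and 51.3, 103 and 111 in the TAC libraries (log2 fold change -1.70 ± 0.32 SE, adjusted p = 0.00884). Col6a3 had 409.7, 299 and 466 normalised counts in the sham libraries and 103, 137 and 189 in the TAC libraries (log2 fold change -1.45 ± 0.30 SE, adjusted p = 0.0122). None of the 3 chains overlapped between the groups, their fold changes were within their standard errors of each other, and TAC library 1 was the lowest in each.

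The FACIT chains did not move together: 3 fell, 1 rose and 1 was not called. Col14a1, which binds type I fibrils, had 144, 111 and 122 normalised counts in the sham libraries and 41.6, 38.2 and 42.1 in the TAC libraries (log2 fold change -1.63 ± 0.23 SE, adjusted p = 0.00378). Col12a1, its close relative, had 128, 131 and 149.9 normalised counts in the sham libraries and 81.4, 59.7 and 59.1 in the TAC libraries (log2 fold change -1.03 ± 0.24 SE, adjusted p = 0.0181). Col16a1, a connective tissue FACIT, had 27.6, 34.4 and 38.5 normalised counts in the sham libraries and 10.7, 13.7 and 18.03 in the TAC libraries (log2 fold change -1.23 ± 0.36 SE, adjusted p = 0.0346). These chains fell without overlap, but Col12a1 and Col16a1 lost their calls when a sham library was left out. Col19a1, a chain of basement membrane zones that is made by differentiating muscle cells, rose, with 47.1, 44.5 and 42.6 normalised counts in the sham libraries and 147, 85.1 and 84.1 in the TAC libraries (log2 fold change 1.23 ± 0.29 SE, adjusted p = 0.0184). All TAC libraries lay above the sham libraries, TAC library 1 highest, and the call was lost with library totals and without any 1 of the sham libraries. Col22a1, a chain of the junction between muscle and tendon, had 138, 232 and 217 normalised counts in the sham libraries and 212, 179 and 449.7 in the TAC libraries (log2 fold change 0.52 ± 0.39 SE, adjusted p = 0.353). The groups overlapped, TAC library 4 stood apart, and the sign turned with library totals (-0.61) and without TAC library 4.

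Col7a1 encodes the only chain of anchoring fibrils, which tie epithelial basement membranes to the tissue below. It had 314, 605 and 650.3 normalised counts in the sham libraries and 1064, 1102 and 1391 in the TAC libraries (log2 fold change 1.18 ± 0.30 SE, adjusted p = 0.0211). All TAC libraries lay above all sham libraries, and sham library 1 was lowest. The rise was 2.27-fold with TMM, and the call was lost with library totals and without sham library 1 or 2 or TAC library 4. Of the multiplexins, collagens of basement membrane zones, Col15a1 fell, with 328, 297 and 532 normalised counts in the sham libraries and 39.7, 157 and 74.1 in the TAC libraries (log2 fold change -2.09 ± 0.49 SE, adjusted p = 0.0178), and TAC library 2 stood well above the other TAC libraries. Without sham library 3 the adjusted p of Col15a1 was 0.0522. Col18a1, which holds the endostatin fragment, was at -0.64 and was not called. With library totals Col18a1 was called lower, at -1.47 (edgeR adjusted p = 0.0259). Col8a1, a short-chain collagen of vessel walls, had 106, 76.8 and 154 normalised counts in the sham libraries and 49.4, 64.6 and 36.1 in the TAC libraries (log2 fold change -1.16 ± 0.34 SE, adjusted p = 0.0345), and its call was lost without sham library 1 or 3 or without TAC library 1 or 4.

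A share within a library does not depend on the scaling between libraries. Shares add up to a whole, so a fall of the fibrillar share raises the others, and a higher share alone is no higher level. Over the 26 chains, counted per kilobase of the same transcripts in all 9 libraries, fibrillar chains made up 57.8%, 52.2% and 55.8% of collagen in the sham quadriceps libraries and 20.9%, 23.0% and 23.5% in the TAC libraries. Basement membrane chains made up 17.9%, 19.96% and 15.5% in sham and 36.9%, 39.1% and 24.3% in TAC quadriceps. Col7a1 alone made up 1.97%, 4.44% and 3.65% in sham and 18.8%, 14.7% and 21.3% in TAC. For these 3 classes the sham and TAC libraries did not overlap. FACIT chains were at 4.34 ± 0.75% in sham and 10.03 ± 3.7% in TAC (mean ± SD, n = 3), also without overlap, and Col22a1 was the largest part of them, at 1.89 ± 0.63% and 6.50 ± 3.5%. Beaded filament chains were at 13.0 ± 0.39% and 10.8 ± 2.0%, and the groups overlapped. In the heart, basement membrane chains were the largest class, at 42.2 ± 2.0%, fibrillar chains made up 30.5 ± 2.4%, and Col7a1 made up 0.0127 ± 0.0025%.

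**Figure D3:**
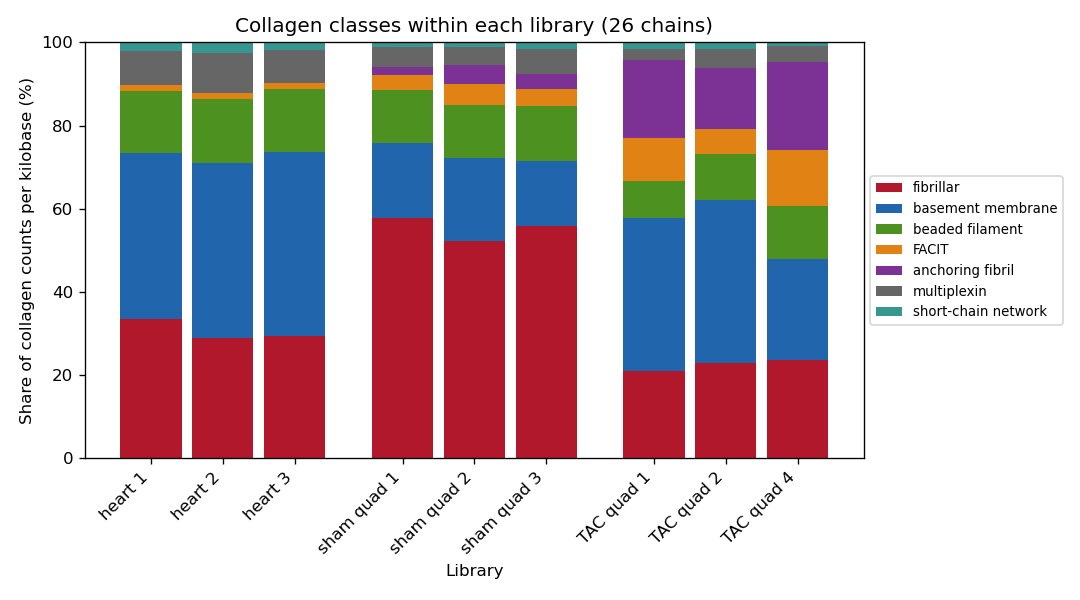
Share of each collagen class (percent of the summed counts per kilobase of 26 chains) in each of the 9 libraries. The fibrillar share lies between 52.2% and 57.8% in sham quadriceps, between 20.9% and 23.5% in TAC quadriceps and between 28.8% and 33.3% in heart.

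The summed level of the 26 chains was 1751, 1503 and 1962 normalised counts per kilobase (TMM over the listed genes) in the sham libraries and 625, 828 and 719 in the TAC libraries, a ratio of 2.40 between the group means. The fibrillar chains differed 5.91-fold and the beaded filament chains 2.85-fold, both lower in TAC and without overlap. The basement membrane chains summed to 313, 300.1 and 305 in sham and 231, 324 and 174 in TAC, and the FACIT chains to 66.2, 77.9 and 79.4 and to 64.6, 51.4 and 97.4, so that the groups overlapped in both classes with TMM. Per library total, the 26 chains summed to 66.0, 45.1 and 61.0 RPKM in sham quadriceps and to 13.3 and 17.3 RPKM in TAC libraries 1 and 2. On this scale the fibrillar chains differed 9.48-fold and the beaded filament chains 4.85-fold. Basement membrane chains then summed to 11.8, 9.001 and 9.48 RPKM in sham and 4.91 and 6.75 RPKM in TAC, and FACIT chains to 2.49, 2.34 and 2.47 RPKM in sham and 1.37 and 1.07 RPKM in TAC, both lower in TAC without overlap (1.73-fold and 1.99-fold). Heart had 230.4, 244 and 219 RPKM, 4.03 times the mean of sham quadriceps. With library totals the median log2 fold change of all 24280 transcripts, quadriceps minus heart, was itself -0.80. This sum was not taken with TMM between the tissues.

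Chains that share a trimer, and some pairs of different collagen types, were compared as ratios within a library, per kilobase. The ratio of Col1a1 to Col1a2, 2 to 1 in the type I trimer, was 0.77 ± 0.06 in heart, 0.46 ± 0.02 in sham quadriceps and 0.26 ± 0.05 in TAC quadriceps (mean ± SD, n = 3), and the 3 groups did not overlap. Col3a1 to Col1a2 was 1.65, 1.48 and 1.85 in sham quadriceps and 0.60, 0.77 and 0.47 in TAC, so that type III mRNA fell further than Col1a2. Col5a2 to Col5a1 was 3.57 ± 0.19 in sham and 2.13 ± 0.28 in TAC. The ratio of Col4a1 to Col4a2, partners in 1 trimer, stayed between 0.80 and 1.12 in all 9 libraries. Col1a2 to Col4a1, a ratio of fibrillar to basement membrane mRNA, was 1.67 ± 0.15 in sham and 0.41 ± 0.13 in TAC, beside 0.34 ± 0.05 in heart. Of the pairs compared, the widest change was that of Col7a1 to Col1a1, at 0.29, 0.68 and 0.55 in sham and 13.4, 10.9 and 10.2 in TAC. A wide change follows from the choice of this pair, since Col7a1 rose with TMM (1.18) and Col1a1 was among the largest falls (-3.31).

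**Figure D4:**
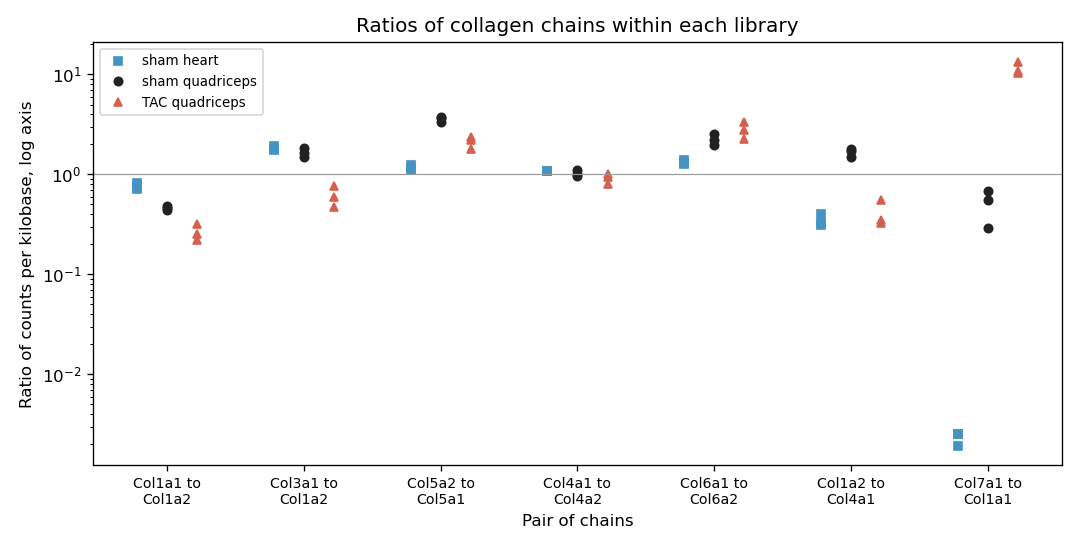
Ratios of counts per kilobase of 7 pairs of collagen chains (log axis), 1 point a library. Col4a1 to Col4a2 stays near 1 in all groups, Col1a1 to Col1a2 is lowest in TAC quadriceps, and Col7a1 to Col1a1 is above 10.2 in each TAC library and below 0.7 in each sham quadriceps library.

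The comparison of sham quadriceps with sham heart served in the study to tell which secreted factors the heart itself expresses. Of 40 chains with enough counts, 9 were higher in quadriceps, 21 were lower and 10 were not called, against 32.2% higher and 34.4% lower among all 24280 transcripts tested. The normalised counts did not overlap, with quadriceps higher, for 9 chains and, with quadriceps lower, for 23, against 34.2% and 38.3% of all transcripts. The study's criterion for this comparison asks for higher expression in quadriceps alone, by over 2 on the log2 scale, and 7 chains met it, against 7.0% of all transcripts. The same size in the other direction, a mirrored threshold that the study did not set, was met by 8 chains, against 8.64%. The untested chains were Col2a1, Col6a4, Col10a1 and Col26a1, which had at most 11 counts in any library. All 6 basement membrane chains, both multiplexins and 4 of 5 beaded filament chains were lower in quadriceps, and Col7a1 was higher. Of 9 FACIT chains 4 were higher and 3 lower, and of 10 fibrillar chains 3 were higher and 3 lower, which for the latter is near the shares over all transcripts. The median of the 40 chains was -0.57 with TMM, beside -0.06 for all transcripts, and -1.32 with library totals, beside -0.80.

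**Figure D5:**
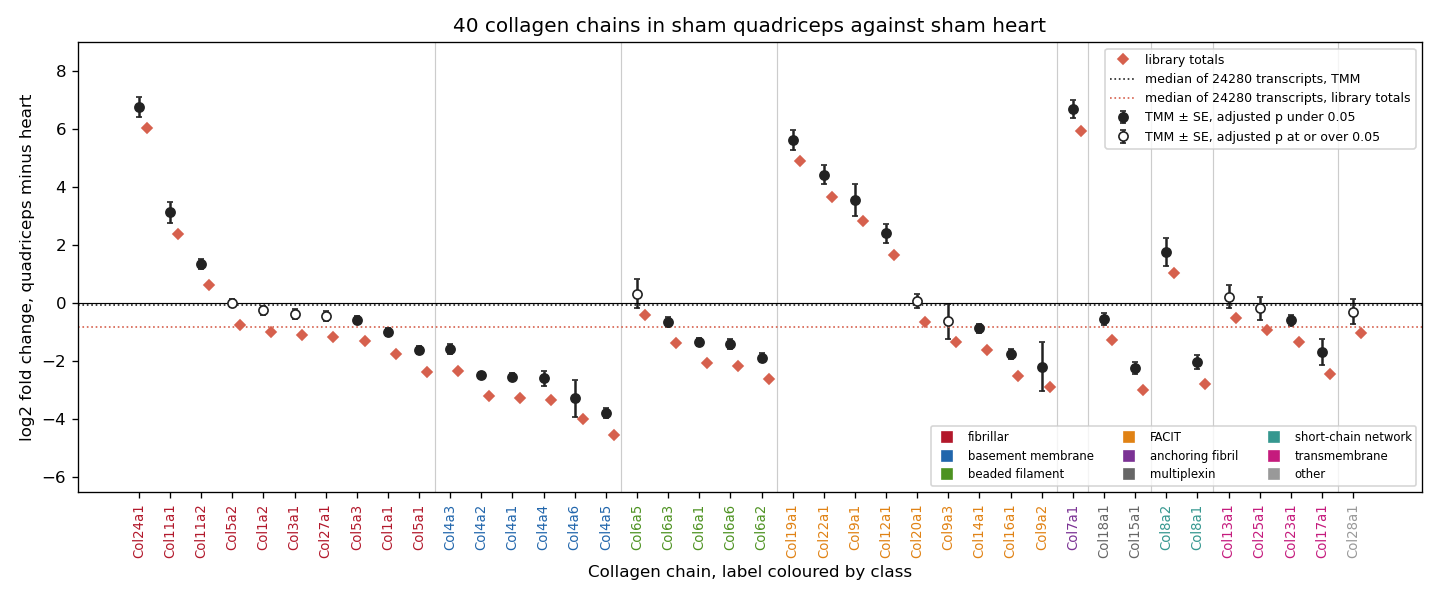
Log2 fold change of 40 collagen chains, sham quadriceps minus sham heart, with TMM (circles, ± SE, filled where the adjusted p was under 0.05) and with library totals (diamonds), grouped by class. All 6 type IV chains lie below 0, and Col24a1, Col7a1, Col19a1 and Col22a1 lie above 4 with TMM.

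The 9 chains higher in quadriceps had at most 57.2 normalised counts in any heart library. Col24a1, a minor fibrillar chain known from developing bone, had 0.734, 1.39 and 2.44 normalised counts in heart and 136, 200.2 and 196 in quadriceps. The heart held 6 reads over its 3 libraries and the quadriceps 342, a scaled ratio of 117 (95% exact interval 53.1 to 320.2, for counting error only). Col19a1 had 0.734, 1.39 and 1.63 normalised counts in heart and 74.5, 64.3 and 61.2 in quadriceps. Its 5 heart reads and 133 quadriceps reads gave a ratio of 54.5 (interval 22.8 to 170.5). Col7a1 had 8.81, 6.25 and 6.51 normalised counts in heart and 496, 875 and 934 in quadriceps (log2 fold change 6.71 ± 0.32 SE, adjusted p = 1.54e-07). Col22a1 had 6.60, 20.1 and 12.2 normalised counts in heart and 218, 336 and 312 in quadriceps (log2 fold change 4.44 ± 0.31 SE, adjusted p = 1.98e-06). In these 4 chains no heart library came near a quadriceps library, and the heart held at most 29 counts a library.

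Col11a1 had 10.3, 7.64 and 3.26 normalised counts in heart and 78.4, 49.7 and 63.2 in quadriceps (log2 fold change 3.14 ± 0.36 SE, adjusted p = 4.83e-05). Col12a1 had 57.2, 38.2 and 16.3 normalised counts in heart and 203, 189.9 and 215 in quadriceps (log2 fold change 2.43 ± 0.33 SE, adjusted p = 0.00014). Col11a2 had 54.3, 40.99 and 42.3 normalised counts in heart and 131, 105 and 119 in quadriceps (log2 fold change 1.37 ± 0.18 SE, adjusted p = 0.000137). These 3 chains were higher in every quadriceps library than in any heart library. Col8a2, a short-chain collagen best known from the cornea, had 13.2, 6.95 and 2.44 normalised counts in heart and 26.98, 21.9 and 31.6 in quadriceps (log2 fold change 1.78 ± 0.48 SE, adjusted p = 0.00877), and was not called with library totals. Col9a1, a cartilage FACIT, had 4 heart reads and 26 quadriceps reads in all, a ratio of 13.3 (interval 4.62 to 52.5).

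By class median, the type IV chains differed most in the other direction, at -2.56. Col4a1 had 8082, 8843 and 8475 normalised counts in heart and 1656, 1344 and 1404 in quadriceps (log2 fold change -2.53 ± 0.12 SE, adjusted p = 1.31e-07). Col4a2 had 7250.4, 8044 and 7562 normalised counts in heart and 1444, 1372 and 1349 in quadriceps (log2 fold change -2.46 ± 0.10 SE, adjusted p = 6.05e-08). The pair was 5.76-fold and 5.49-fold lower in quadriceps, and in heart each was above 40 RPKM, more than any other chain. Col4a5 had 867, 815 and 716 normalised counts in heart and 68.1, 61.4 and 41.5 in quadriceps (log2 fold change -3.78 ± 0.17 SE, adjusted p = 9.76e-08), the largest difference in this direction. Col4a4 had 167, 176 and 120.5 normalised counts in heart and 34.7, 17.5 and 23.7 in quadriceps (log2 fold change -2.59 ± 0.26 SE, adjusted p = 2.20e-05). Col4a6 had 39.6, 34.04 and 17.9 normalised counts in heart and 3.85, 0 and 5.93 in quadriceps, from 125 and 6 reads, a ratio of 10.2 (interval 4.55 to 28.3). Each of these chains lay lower in all quadriceps libraries than in any heart library, and Col4a3 did so too, at -1.57.

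Col15a1 had 2512, 3134 and 2312 normalised counts in heart and 519, 429.5 and 764 in quadriceps (log2 fold change -2.22 ± 0.21 SE, adjusted p = 1.26e-05). Col8a1 had 648, 821 and 543 normalised counts in heart and 167, 111 and 221 in quadriceps (log2 fold change -2.03 ± 0.24 SE, adjusted p = 5.11e-05). Col6a2 had 2254, 2459 and 2095 normalised counts in heart and 700.3, 487 and 683 in quadriceps (log2 fold change -1.87 ± 0.15 SE, adjusted p = 4.26e-06). All 3 were lower in quadriceps without overlap. Col6a2 was read here on its most counted transcript, NM_146007, and in the TAC table on NM_001347207, on which the same sham libraries gave 1.94 rather than 3.75 RPKM. Col11a2, Col24a1, Col4a1 and Col5a3 likewise stood on different transcripts in the 2 tables. The further chains lower in quadriceps were Col16a1, Col17a1, Col5a1, Col6a6, Col6a1, Col1a1, Col14a1, Col6a3, Col23a1, Col5a3 and Col18a1, with log2 fold changes from -1.75 to -0.54, and Col9a2, which rested on 30 heart reads and 3 quadriceps reads, a ratio of 4.88 (interval 1.52 to 25.01). Col9a2, Col18a1 and Col23a1 lost their calls without single libraries.

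The chains that did not pass the test between the tissues included the most abundant fibrillar mRNAs. Col3a1 was at 29.7 ± 2.39 RPKM in heart and 13.9 ± 3.90 RPKM in quadriceps, with a log2 fold change of -0.36 with TMM, and Col1a2 and Col5a2 were at -0.24 and 0.01. With library totals these 3 chains were called lower in quadriceps, at -1.09, -0.98 and -0.73. Without quadriceps library 1, Col3a1 and Col1a2 were called lower with TMM too (-0.43 and -0.33, edgeR adjusted p = 0.0438 and 0.04), and Col27a1 was without quadriceps library 3 (-0.51, edgeR adjusted p = 0.0486). Col27a1, Col20a1, Col9a3, Col6a5, Col25a1, Col13a1 and Col28a1 were not called either. Per length, the transmembrane chain with the highest mean in quadriceps was Col13a1, a chain of the nerve to muscle synapse, at 0.211 ± 0.151 RPKM. Col23a1 was at 0.141 ± 0.0114 RPKM there, and lay above Col13a1 in library 3 and in mean normalised counts. Col13a1 had 27.9, 27.8 and 21.98 normalised counts in heart and 50.1, 23.4 and 13.8 in quadriceps. Col28a1, a chain of peripheral nerve, had 16.1, 25.01 and 13.02 normalised counts in heart and 23.1, 11.7 and 7.90 in quadriceps. Both varied several-fold among the quadriceps libraries, which overlapped the heart libraries.

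The same 3 sham quadriceps libraries stand in both comparisons, so the 2 sets of values are set side by side only. Of the 14 chains that fell after TAC, 9 were also lower in quadriceps than in heart, 2 (Col11a1 and Col12a1) were higher and 3 (Col1a2, Col3a1 and Col5a2) were not called. Of the 10 chains not called after TAC, 6 were lower in quadriceps, 3 higher and 1 not called, so the lower share was similar. Both chains that rose with TMM after TAC, Col7a1 and Col19a1, were among the chains higher in quadriceps. The type IV chains, far lower in quadriceps than in heart, were at -0.41 and -0.24 for Col4a1 and Col4a2 after TAC, without a call.

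Genes that make, cut, link and hold collagen were read from 7 lists. Of 32 such genes tested after TAC, 1 rose and 9 fell, beside 17.7% and 11.9% of all genes tested. With library totals 1 rose and 21 fell, beside 3.41% and 30.7%. Fibril-associated proteins gave 6 falls and 1 rise among 14 tested (median -0.72). The fibril-associated protein Postn (periostin) was at -3.23, and the small proteoglycans Lum (lumican) and Bgn (biglycan) were at -2.34 and -2.13. Aebp1, which binds fibrillar collagen, rose by 2.13. Single falls were seen for the enhancer of procollagen cleavage Pcolce (-1.01, 1 of 4 processing genes), the crosslinking enzyme Loxl2 (-1.52, 1 of 4) and the collagen-degrading protease Ctsk (-1.31, 1 of 6). The medians of these 3 lists were -0.87, -0.14 and -0.10. Neither of 2 hydroxylases and glycosyltransferases (median 0.12) nor of 2 chaperones (median -0.70) was called, and Serpinh1, the collagen chaperone, was at -1.07 (edgeR adjusted p = 0.0674). With library totals Serpinh1 and the chaperone Sparc were both called lower, at -2.23 and -1.08 (edgeR adjusted p = 0.00339 and 0.0127). The list medians were then -1.65 for fibril-associated proteins, -1.56 for processing, -0.89 for crosslinking, -0.76 for degradation, -0.70 for hydroxylases and glycosyltransferases and -1.65 for chaperones. No collagen receptor was among the listed genes.

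Between the tissues, 10 genes of these lists were higher in quadriceps and 40 lower of 71 tested, beside 32.2% and 34.4% of all transcripts. The counts of fibril-associated proteins in both directions and of receptors on the lower side were not far from those shares. Of 14 hydroxylases and glycosyltransferases 11 were lower and none higher (median -0.96), led by Crtap, Plod2, Plod1 and P3h2 at -2.54, -2.38, -1.84 and -1.61. Of 8 processing genes 7 were lower (median -1.22), among them Adamts3, Adamts2 and Pcolce at -1.95, -1.39 and -1.39. Tll2 had 100 heart reads and 1 quadriceps read, a ratio of 48.8 (interval 8.57 to 1948). Chaperones and export genes gave 2 higher and 4 lower of 8 (median -0.46), among them the procollagen export factor Sec24d (-2.45) and Serpinh1 (-1.41) on the lower side and Tmem38b (2.05) and Sec23a (1.75) on the higher side. Crosslinking enzymes gave 1 higher and 3 lower of 6 (median -0.69): Lox was higher by 2.40, and Loxl1, Loxl2 and Tgm2 were at -1.74, -1.35 and -1.30. Degrading enzymes and their inhibitors gave 2 higher and 5 lower of 10 (median -0.12), with Timp4 and Mmp2 at 1.54 and -1.09. Mmp13 had 102 heart reads and 2 quadriceps reads, a ratio of 24.9 (interval 6.72 to 208), and Mmp16 had 42 and 5, a ratio of 4.10 (interval 1.63 to 13.3). Receptors gave none higher and 4 lower of 9 (median -0.50), Itga1, Mrc2, Ddr1 and Itgb1, at -1.67, -1.58, -0.86 and -0.50. Fibril-associated proteins gave 5 higher and 6 lower of 16 (median -0.20), and Kera, Fmod, Chad and Aebp1, the first 3 being proteins of tendon or cartilage, were higher by 8.86, 3.79, 2.31 and 2.09.

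Markers of the cell types in the tissue moved with the collagens in part. In the TAC table, 5 of 13 fibroblast markers fell and none rose (median -0.34), led by Mfap4, Lum, Pi16 and Dpt at -2.72, -2.34, -1.81 and -1.34. Their summed level was 8401, 7008 and 6975 normalised counts per kilobase in sham and 7388, 5562 and 9337 in TAC, and the groups overlapped. Per library total the sum was 317, 210.2 and 217 RPKM in sham and 157 and 116 RPKM in TAC libraries 1 and 2, lower without overlap, and the list median was -1.12. The most abundant, Dcn (decorin), had a log2 fold change of 0.17 and was not called. Of 4 tendon fibroblast markers, Thbs4 and Chad fell, by 1.38 and 1.37 (median -1.08), and the list summed to 1056, 1181 and 1264 normalised counts per kilobase in sham and 568, 504 and 524 in TAC. Of 4 macrophage markers, C1qc, Lyz2 and C1qa fell, by 1.41, 1.25 and 0.89 (median -1.07), with sums of 783, 689.7 and 928 against 348, 329 and 404. Of 3 endothelial markers, Vwf and Pecam1 rose with TMM, by 0.84 and 0.63, and were not called with library totals (0.09 and -0.02), and the list summed to 392, 422 and 499.7 in sham and 560.4, 533 and 688 in TAC. Per library total the direction of this sum turned, to 14.8, 12.7 and 15.5 RPKM in sham and 11.9 and 11.1 RPKM in TAC. The tendon fibroblast and macrophage lists were lower in TAC on both scales, with medians of -1.91 and -1.68 with library totals. The most abundant genes of the tendon fibroblast, macrophage and endothelial lists were Thbs4, Lyz2 and Pecam1, and no listed marker was at 0 in a whole group.

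Adipocyte markers varied most between libraries of 1 group, with sums of 2455, 1268 and 345 normalised counts per kilobase in sham and 2156, 470.3 and 3399 in TAC, mostly from Cfd, and none of 3 was called (median 0.73). Of 3 muscle fibre markers Mstn rose by 1.37 with TMM (1.06 and not called with library totals), and the most abundant, Ckm, was not called (median 0.45). Across all marker lists, 3 of 30 genes tested rose and 10 fell, beside 17.7% and 11.9% of all genes. With library totals none rose and 17 fell, beside 3.41% and 30.7%. No mural, Schwann cell or cardiomyocyte marker was among the genes of that table. The medians of the adipocyte and muscle fibre lists turned to -0.79 and -0.26 with library totals. The part of any of these cell types in the collagen values was not tested.

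Both tissues carried the markers of their labels. The marker counts between the tissues stand beside 32.2% higher and 34.4% lower among all transcripts. All 10 muscle fibre markers were higher in quadriceps, led by Actn3, Tnnt3, Pvalb and Myh4 at 16.22, 16.21, 16.05 and 15.16. All 10 cardiomyocyte markers were lower, with sums of 27984, 27234 and 27584 RPKM in heart and 211, 250.3 and 164 RPKM in quadriceps, among them Ryr2, Tnni3 and Myh6 at -13.51, -13.01 and -12.53. Nppb had 10173 heart reads and 3 quadriceps reads, a ratio of 1656 (interval 567 to 8033). Endothelial markers were lower in quadriceps in 10 of 10 (median -1.41), led by Kdr, Cdh5, Tie1 and Vwf at -2.13, -1.56, -1.49 and -1.43, and summed to 199, 210.4 and 219 RPKM in heart and 49.9, 39.9 and 48.7 RPKM in quadriceps. With TMM the endothelial markers lay closer, at 5416, 5611 and 5890 normalised counts per kilobase in heart and 2093, 1924 and 2249 in quadriceps. They moved in the direction of the type IV chains, as did the medians of the mural cell, macrophage, fibroblast and cardiomyocyte lists. Mural cell markers gave 1 higher and 4 lower of 8, small counts to set beside those shares (median -0.47), with Cspg4, Pdgfrb, Acta2 and Kcnj8 at -1.52, -1.44, -1.29 and -0.94. Macrophage markers gave 8 lower of 10 (median -0.80), with C1qa, Csf1r, Fcgr1 and Mrc1 at -1.52, -1.38, -1.32 and -0.997.

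Tendon fibroblast markers were higher in quadriceps in 7 of 8 (median 3.78), led by Kera, Tnmd, Thbs4 and Fmod at 8.86, 5.92, 3.88 and 3.79, and summed to 10.4, 10.7 and 7.12 RPKM in heart and 59.9, 49.0 and 51.3 RPKM in quadriceps. With TMM they lay further apart, at 284, 284 and 192 normalised counts per kilobase in heart and 2511, 2362 and 2369 in quadriceps. Fibroblast markers gave 2 higher and 9 lower of 16 (median -0.47) and summed to 665, 672 and 599 RPKM in heart and 334, 223 and 227 RPKM in quadriceps, mostly from Dcn. With TMM the fibroblast markers lay closer, at 18082, 17917 and 16132 normalised counts per kilobase in heart and 13994, 10745 and 10474 in quadriceps. Tcf21, a factor of cardiac fibroblasts, had 155 ± 18.4 normalised counts in heart (SD, n = 3) and 0 in every quadriceps library, which is at least 32.8-fold lower against 3 counts in each library, and Fbln1, Mfap4 and Lox were at -3.62, -1.47 and 2.40. Adipocyte markers were higher in quadriceps in 7 of 7 (median 5.47), led by Retn, Cfd, Adipoq and Cidec at 6.99, 6.32, 6.09 and 5.47. Schwann cell markers gave 4 higher of 8 (median 1.53), among them Prx, Mbp and Ncmap at 3.08, 2.77 and 2.14. The part of these cell types in the difference between the tissues was not tested.

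Several chains lie side by side in the mouse genome (GRCm38, GENCODE annotation). Col3a1, at chr1:45311538-45349706 on the plus strand, lies 24614 bases from Col5a2, and both fell after TAC. Col4a1, at chr8:11198423-11312826 on the minus strand, meets Col4a2 head to head with an overlap of 22 bases, and the 2 chains kept a ratio near 1 throughout. Col19a1 lies 9205 bases from Col9a1 on chromosome 1, and both were higher in quadriceps than in heart. Col4a3 and Col4a4 lie 71 bases apart and Col4a5 and Col4a6 1308 bases apart, and all 4 were lower in quadriceps. Neighbours did not always go together. Col6a5 and Col6a6 lie 27917 bases apart on chromosome 9, and Col6a6 was lower in quadriceps (-1.40) while Col6a5 was not called (0.33). Col1a1 lies at chr11:94936224-94953042, Col1a2 at chr6:4504814-4541544 and Col7a1 at chr9:108953586-108984875. The strand setting of the counting is not given in the sources used here, so reads of Col18a1 and of its opposite-strand neighbour Slc19a1 cannot be told apart where they overlap. The same limit holds for Col9a3 with Tcfl5, Col10a1 with Nt5dc1, and Col4a1 with Col4a2 within their 22 shared bases.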

How the data were processed

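The authors deposited counts per RefSeq transcript for 9 libraries of whole quadriceps or heart tissue in 2 tables. The submitters' processing notes name Trim Galore, STAR, edgeR and mm10, and the strand setting of the counting is not given in the sources used here. The deposited RPKM values are those counts divided by transcript length and library total, from which the totals were recovered. The deposited fold changes, F statistics and p-values of the authors' own comparisons were not used. The table of TAC against sham holds 587 secreted-protein genes, so its TMM factors refer to those genes. The column of TAC library 4 carries a number that the sample labels, which run to 3, do not give. Its counts were used as a replicate of its group, but 1 further column, its RPKM values, could be assigned to no sample and was not used, so that fits on library totals or RPKM after TAC hold 5 libraries.

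The main test was the edgeR (version 4.0.16, R 4.3.3) quasi-likelihood test with Benjamini-Hochberg adjustment, run on 586 genes or 24280 transcripts that had over 5 counts in 2 libraries or more. No 2 libraries of a group were alike within sampling noise, and the fits were tested on simulated data. The alternatives were DESeq2 1.42.0, library totals, other count filters, limma 3.58.1 on log2(RPKM + 0.5) and log2(RPKM + 0.1), the study's criterion (between the tissues mirrored to lower values), a replicate block, 1 transcript a gene and leaving out single libraries. Where a group had at most 3 counts in every library, a ratio of summed counts with an exact 95% interval is given.

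The members, the classes and the gene lists were chosen with earlier results of these data known. Every chain is named. Values in each library are given for the most abundant chain of each class, for all chains called after TAC, and for the 8 largest differences in each direction between the tissues with at least 10 counts in every library of the higher group, and up to 4 genes called in each list are named. Beyond this rule, the most abundant gene of a list and the other genes singled out were chosen after their values were seen. The values of 1 gene that the rule would name are not reported here. Promoter windows are from RefSeq.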

Additional observations from a re-analysis of the deposited data

How the results depend on the processing

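After TAC, fits on library totals or RPKM follow the median of all genes downward and hold 5 libraries. Library totals and limma with either pseudocount gave 0 rises of collagen chains and 19, 20 and 20 falls, and leaving out single libraries gave 0 to 2 rises and 9 to 17 falls. Of all 586 genes, library totals called 20 higher and 180 lower. Limma called 17 and 16 higher and 199 and 198 lower (pseudocounts 0.5 and 0.1). Without single libraries 25 to 113 of all genes were called higher and 35 to 102 lower. Of the 14 falls 9, and of the 2 rises 0, were called under every alternative that tested the chain, the study's criterion not counted. For the matrix genes library totals gave 21 falls and limma 20, and leaving out libraries gave 1 to 2 rises. For the cell type markers library totals and limma (pseudocounts 0.5 and 0.1) gave 0 rises and 17, 20 and 19 falls, the stricter count filter (10 or more throughout) and the study's criterion each gave 1 rise, and leaving out libraries gave 0 to 2 rises and 6 to 11 falls. The stricter filter called 86 of all 562 genes it tested higher, and the study's criterion 67 of 586. Replicate numbers shared by the groups did not pair the libraries (correlations of deviations 0.08 and -0.18 after TAC, and 0.06, -0.04 and 0.05 between the tissues). A replicate block gave 2 rises and 11 falls of chains and 1 rise and 9 falls of markers after TAC, on 4 libraries. It gave 56 rises and 62 falls among all 586 genes. Col22a1 turned to -0.61 with library totals and to -0.38 and -0.54 with limma (pseudocounts 0.5 and 0.1), and ranged from -0.0768 to 0.76 without single libraries.

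Between the tissues, the stricter filter tested fewer chains and gave 2 higher, and 15 markers higher, against 6494 of all 19432 transcripts. The study's criterion, which asks only for higher expression in quadriceps, gave 6 matrix genes higher, and the same threshold mirrored to the other direction gave 8 chains, 5 matrix genes and 13 markers lower. Among all transcripts 7.0% were higher and 8.64% lower by these thresholds. Of the 9 chains higher and the 21 lower, 8 and 18 were called under every alternative that tested the chain, again without the study's criterion, and the stricter filter left most of the chains higher in quadriceps untested. The chains that turned direction were not called in the comparison as reported. With library totals, Col13a1, Col20a1, Col5a2 and Col6a5 were at -0.50, -0.65, -0.73 and -0.40. With limma and a pseudocount of 0.5 they were at -0.20, -0.19, -0.65 and -0.0388, and with 0.1 at -0.49, -0.45, -0.73 and -0.16. Col5a2 was at -0.0287 with no filter, -0.057 with the stricter filter and -0.0052 with the replicate block. Without single libraries the log2 fold changes ranged from -0.41 to 0.54 for Col13a1, -0.0022 to 0.24 for Col20a1, -0.26 to 0.0325 for Col25a1, -0.82 to 0.0238 for Col28a1, -0.0544 to 0.15 for Col5a2 and -0.63 to 0.65 for Col6a5.

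Class shares moved by more than their SD in some groups. Counts not divided by length gave 20.1% fibrillar in TAC, 46.5% basement membrane in heart, 12.7%, 11.5% and 8.55% beaded filament in heart, sham and TAC quadriceps, and 5.25% FACIT in sham quadriceps. Summing all transcripts of a chain gave, for heart and sham quadriceps, 23.6% and 48.2% fibrillar, 47.6% and 21.8% basement membrane, 19.5% and 17.8% beaded filament, and 1.07% and 3.52% FACIT. In these 4 classes the order of the group means was as reported when counts were not divided by length. The sums over transcripts, which cover heart and sham quadriceps only, kept the order of these groups but cannot check it. Transcripts of Col4a1, and those of Col5a3, held the same counts in the sham quadriceps libraries, so that such sums count the same reads repeatedly. The cause of the moved shares was not tested.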
